A study of Mus musculus with 288 samples.

Results

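The hypothalamus was sampled every 2 h for 2 days in C57/BL6 mice, and the 24 arrays of that tissue, out of 288 arrays from 12 tissues in the series, are described here. They were chosen by their tissue label alone. The mice had been entrained to a light-dark cycle of 12 h each for 1 week, were moved to complete darkness in light-tight boxes before collection, and carried no other treatment or allele. Collection ran from circadian time (CT) 18 to CT64, where CT counts hours of the free-running day. Each array held RNA pooled from 3 mice, with 1 array per time point and no replicate, so p-values measure the spread of single pools around a fitted curve. The labels give no age or sex.

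The hypothalamus holds the suprachiasmatic nucleus, the central circadian pacemaker, together with many nuclei that control feeding, temperature, stress hormones and sleep. The molecular clock is a feedback loop: the activators ARNTL (BMAL1) and CLOCK drive the Per, Cry and Nr1d genes, whose products in turn repress the activators or the Arntl gene itself. Clock proteins and systemic signals such as glucocorticoids, body temperature and feeding then impose daily rhythms on further genes.

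Levels are log2 intensities of 19938 genes, 1 probe set per gene. The 15 measured hypothalamus markers averaged 8.53 over the arrays, against 5.69 in cerebellum, 5.97 in brainstem and 6.30 in adrenal gland, the highest of the other 11 tissues. The neuron list averaged 10.91, astrocytes 10.50, and oligodendrocytes and myelin 10.38. Markers of hindbrain averaged 5.28 in hypothalamus and 7.72 in brainstem. Those of thalamus averaged 9.10 in hypothalamus, 8.01 in brainstem and 8.23 in cerebellum. Hypothalamus markers were thus highest under their own label, and the thalamus markers were also higher there than in the other brain tissues.

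The arrays at CT18 and CT36 stood apart from the rest. Their median correlations with the other hypothalamus arrays were 0.9915 and 0.9942, against 0.9959 at CT60 and 0.9974 to 0.9987 on the other 21. At CT18, 33 genes lay more than 1 log2 unit from the 24 h wave fitted to the other arrays. The small RNA gene Rny1 read 11.79 there against an expected 8.94, and Carhsp1 read 7.32 against 8.71. At CT36, 78 genes lay that far off, 68 of them above. Markers of cortex and hippocampus averaged 9.04 at CT36 and between 7.25 and 7.59 on the other arrays, and 9 of 10 measured markers had their highest value of all there. Neurod6, a transcription factor of cortical excitatory neurons, read 8.01 at CT36 against an expected 4.47, and the vesicular glutamate transporter gene Slc17a7 read 11.59 against 8.64. Hypothalamus markers had their lowest mean, 8.04 against a median of 8.55, on that array, and the neuropeptide genes Trh and Gal lay 1.17 and 1.11 log2 units below expectation, at 8.48 and 8.09. At CT22 the thalamus markers had their highest mean, 9.63 against a median of 9.13, with 11 of 12 highest there. Results are therefore given with all 24 arrays and, where the values moved, without CT18 and CT36.

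**Figure D1:**
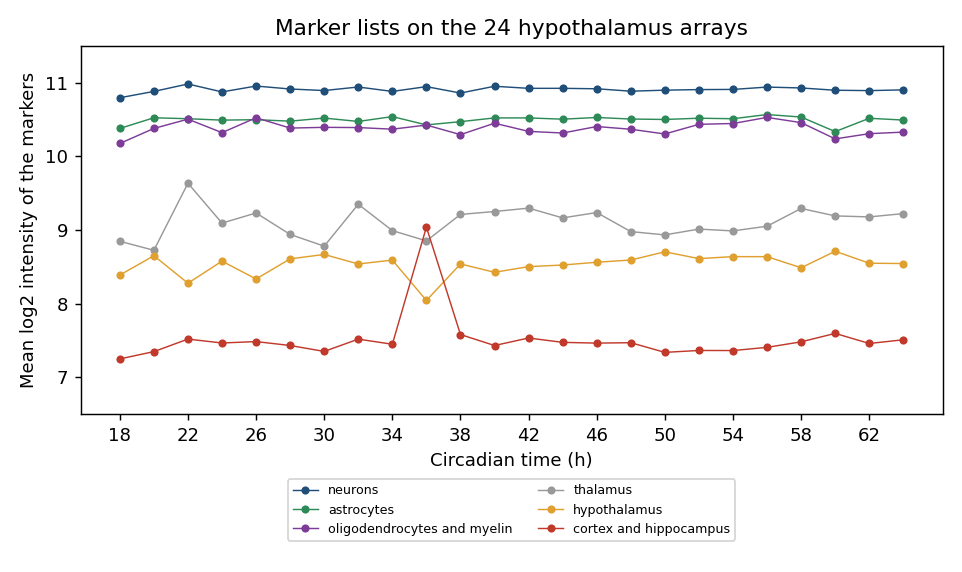
Mean log2 intensity of 6 marker lists (y axis) on each hypothalamus array against circadian time in hours (x axis), 1 point per array. The cortex and hippocampus line jumps to 9.04 at CT36, where the hypothalamus line falls to 8.04, while the neuron line stays between 10.80 and 10.98.

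A 24 h wave was fitted to each gene over both days. The peak-to-trough fold of that wave, given with its 95% interval, measures its size, and peak times are given in hours from 0 to 24, with 0 the start of the subjective day and 12 the start of the subjective night. A wave was called at an adjusted p under 0.05 (limma, Benjamini-Hochberg over all genes). With all arrays, 359 genes were called (1.8% of those tested), and 173 of them exceeded 1.2-fold and 13 exceeded 1.5-fold. The median fold was 1.195 among called genes and 1.06 over all genes. Without CT18 and CT36, 670 genes were called (3.36%), including 347 of the 359, and the median residual SD of a gene fell from 0.08 to 0.07 log2 units. Among these 347, no peak moved by more than 0.97 h. The number over 1.2-fold was 161 without the 2 arrays. Leaving out CT28, CT52 or CT54 alone brought the count down to 229, 231 and 219.

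Peaks gathered in 2 parts of the day. With all arrays, 60 called genes peaked from 6 to 8 h and 34 from 4 to 6 h. A larger group of 72 peaked from 18 to 20 h and 54 from 20 to 22 h, in the second part of the subjective night. Between 10 and 16 h there were 16, 12 and 13 genes per 2 h. Without CT18 and CT36 the bins with most genes were those from 18 to 20 h, with 108, and from 6 to 8 h, with 98, and the bin from 8 to 10 h rose from 26 to 93. Over longer spans, 102 genes peaked from 6 to 12 h and 149 from 18 to 24 h with all arrays, against 233 and 228 without the 2. The peaks fitted to each day alone lay within 4 h of each other in all 359 called genes, but the calls rest on both days together, and the same held for 40.2% of all genes.

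**Figure D2:**
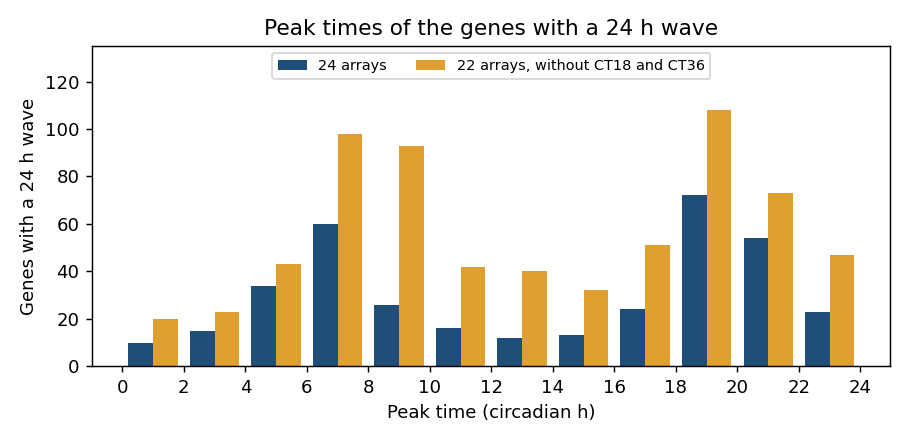
Number of genes with a called 24 h wave (y axis) by the peak time of the wave in 2 h bins (x axis, circadian hours), with all 24 arrays (blue) and without CT18 and CT36 (orange). Both sets have a larger group at 18 to 20 h, with 72 and 108 genes, and another at 6 to 8 h, with 60 and 98.

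No gene passed for a 12 h wave (0%), where 691 genes had an unadjusted p under 0.05 (3.47%) and the lowest adjusted p was 0.999. None passed for a straight rise or fall over the 2 days (0% in each direction), with 2265 genes at an unadjusted p under 0.05 (11.4%) and a lowest adjusted p of 0.351. Both counts were 0 under each of the alternatives run.

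Among clock genes, the 5 called repressors peaked between 9.33 and 12.1 h and Arntl at 22.8 h. Of 31 measured members of the clock lists, 11 were called with all arrays and 14 without CT18 and CT36, beside 1.8% and 3.36% of all genes. List members were chosen with earlier results of these data known, so these shares are descriptive. In the repressor list 5 of 9 members were called, with a median fold of 1.26. Nr1d1, which encodes REV-ERBα, the repressor of Arntl, ranged from 9.61 at CT18 through a median of 10.10 to 10.68 at CT32. Its values were above 10.3 from CT28 to CT36 and again from CT52 to CT60, and at or below 10.2 at all other times. The fold was 1.67 (95% interval 1.51 to 1.84), with a peak at 7.72 h (SE 0.356 h) and an adjusted p of 1.22e-06. Dbp, a PAR-domain output factor driven by CLOCK and ARNTL, ranged from 9.02 at CT22 through 9.44 to 9.94 at CT58, a fold of 1.67 (1.52 to 1.83) peaking at 9.41 h (adjusted p = 3.87e-07). Ciart, a repressor of the CLOCK-ARNTL complex, ranged from 8.04 at CT18 through 8.48 to 9.27 at CT36, so its extremes lay on the 2 arrays that stood apart. The fold was 1.61 with all arrays and 1.51 without them, with peaks at 9.33 and 9.28 h.

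The Per genes, whose proteins form the core repressor complex, peaked between 9.96 and 12.1 h. Per1 peaked at 9.96 h with a fold of 1.53 (1.31 to 1.78), Per3 at 11.1 h with 1.32 (1.24 to 1.40), and Per2 at 12.1 h with 1.35 (1.25 to 1.45). The SEs of these peaks were 0.667, 0.408 and 0.482 h, and the order was not tested. Per1 ranged from 7.75 at CT18 through 8.57 to 9.15 at CT60. Its value at CT18 lay 0.79 log2 units below the wave fitted to the other arrays, and without CT18 and CT36 the fold was 1.46 (adjusted p = 0.000139). Per2 ranged from 7.62 at CT26 through 7.96 to 8.29 at CT36. Per3 ranged from 8.32 at CT22 through 8.64 to 8.86 at CT58. All 3 Per genes had their highest value of the first day at CT36, and of the second day at CT58 or CT60.

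Arntl, the activator, had low values from CT34 to CT36 and from CT54 to CT60, spans that include the highest Per values of each day. It ranged from 7.65 at CT34 through 7.84 to 8.14 at CT22, with a fold of 1.23 (1.16 to 1.32), a peak at 22.8 h (SE 0.581 h) and an adjusted p of 0.00145. At CT18, where Per1 had its lowest value, Arntl was also low, at 7.69, which was 0.26 below the wave of the other arrays. Without CT18 and CT36 the fold was 1.25 and the adjusted p 3.80e-05. Clock, its partner, had a fold of 1.10 and did not pass (adjusted p = 0.194). Nr1d2, the second REV-ERB gene, had a fold of 1.18 at 11.9 h, and Bhlhe41, a helix-loop-helix repressor, 1.26 at 9.59 h. Cry1, Cry2, Bhlhe40 and Timeless did not pass with or without the 2 arrays, with adjusted p of 0.299, 0.162 and 0.0997 for the first 3 with all arrays. Among output factors, Usp2, a deubiquitinase with a clock-driven promoter, was called at 1.39-fold and 11.8 h, and the tetraspanin gene Tspan4 at 1.30-fold and 10.04 h. The count of called output factors rose from 3 to 6 of 15 without CT18 alone and to 5 without CT22 alone. Klf9, Klf13 and Klf15, Krüppel-like factors, were added without CT18 and CT36, at 1.22, 1.16 and 1.15-fold. Tef and Hlf, the other PAR factors, did not pass (1.10 and 1.18-fold, adjusted p = 0.340 and 0.116). None of 10 measured kinases and ligases that act on clock proteins was called, with 1 at an unadjusted p under 0.05, beside 17.5% of all genes.

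**Figure D3:**
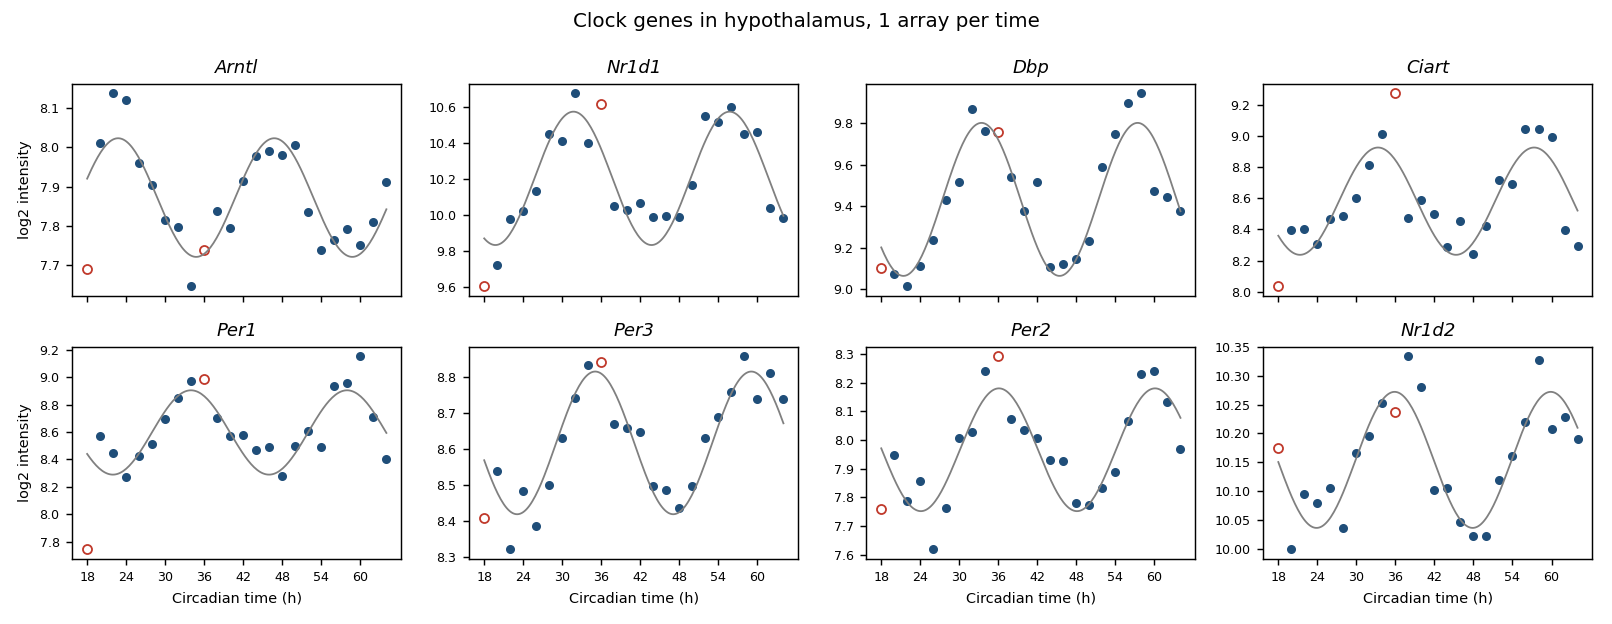
Log2 intensity (y axis, a scale per gene) of 8 clock genes on each array against circadian time in hours (x axis). Filled points are single arrays, open red points are CT18 and CT36, and the grey line is the 24 h wave fitted to all arrays. Nr1d1 peaks at 7.72 h, the Per genes from 9.96 to 12.1 h, and Arntl at 22.8 h, with Ciart and Per2 at their highest on the CT36 array.

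CLOCK and ARNTL bind the E-box, spelled CACGTG, which reads the same on both strands. The stretch from 250 bases before to 50 after each RefSeq gene start (GRCm38.p6) was searched for it, and 15614 of the genes tested had such a stretch. An E-box was present in 9.50% of them. It was present in 3 of the 4 called repressors with an entry (Per1, Ciart and Bhlhe41), in 1 of 3 uncalled repressors (Cry1), in 1 of 3 called output factors (Tspan4) and in 3 of 10 uncalled ones (Tef, Klf15 and Lonrf3). It was absent from the called receptors Nr1d1 and Nr1d2, from the called activator Arntl, and from the 2 uncalled members of each of these lists. The sites in called members are shown with the E-box in capitals, in 30 bases read along the gene.
Per1, chr11:69098771-69098800, plus strand: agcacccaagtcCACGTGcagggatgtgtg
Ciart, chr3:95882327-95882356, minus strand: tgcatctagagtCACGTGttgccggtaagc
Ciart, chr3:95882269-95882298, minus strand: cgcagggggaggCACGTGcagaaccgcacg
Ciart, chr3:95882255-95882284, minus strand: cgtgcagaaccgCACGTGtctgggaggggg
Bhlhe41, chr6:145865556-145865585, minus strand: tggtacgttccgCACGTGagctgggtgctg
Tspan4, chr7:141476317-141476346, plus strand: cccccatggagcCACGTGcagagccacgag
Ciart held 3 E-boxes, beginning 116, 58 and 44 bases before its start. The other 3 genes held 1 each, at 166 bases before the start in Per1, 153 in Bhlhe41 and 51 in Tspan4. The D-box TTATGTAA, read by PAR factors such as DBP and searched on both strands, was found in 0.999% of genes, and Per3 held it at 205 and 158 bases before its start. The uncalled repressor Timeless held it as well. A match describes these letters and shows no binding.

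The 250 bases before the Per1 start that this E-box precedes follow, with the E-box in capitals, as the longer context of a light- and hormone-responsive clock gene.
Per1, chr11:69098699-69098948, plus strand: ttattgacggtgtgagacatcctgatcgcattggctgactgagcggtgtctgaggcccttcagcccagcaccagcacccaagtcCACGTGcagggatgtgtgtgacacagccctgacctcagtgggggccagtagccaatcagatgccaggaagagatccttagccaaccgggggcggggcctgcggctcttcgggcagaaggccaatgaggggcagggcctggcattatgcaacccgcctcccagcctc

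Heat shock chaperones rose late in the subjective night. These proteins refold other proteins and are induced by heat through the factor HSF1. As for the clock lists, earlier results of these data were known when members were chosen, so the shares are descriptive. Of 20 measured members, 10 were called with all arrays and 13 without CT18 and CT36, beside 1.8% and 3.36% of all genes, and all 10 peaked between 18.98 and 22.3 h. The median fold of the 20 was 1.2005, against 1.06 over all genes, and 18 of the 20 fitted peaks lay between 18 and 24 h. Chordc1, an HSP90 co-chaperone, ranged from 9.28 at CT60 through 9.90 to 10.48 at CT18. Its values lay between 10.10 and 10.48 from CT18 to CT24 and again from CT42 to CT50, and between 9.28 and 9.80 from CT30 to CT36 and CT52 to CT62. The fold was 1.60 (1.43 to 1.78) with a peak at 21.1 h (SE 0.433 h, adjusted p = 2.76e-05), and 1.55 without the 2 arrays.

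Hsph1, the HSP110 nucleotide exchange factor, had a fold of 1.30 (1.21 to 1.39) at 21.02 h, between 10.54 at CT60 and 11.18 at CT18. The small heat shock protein gene Hspb1 had 1.42 (1.25 to 1.61) at 19.2 h, and Stip1, which bridges HSP70 and HSP90, 1.21 at 22.3 h. Dnajb4, an HSP40 partner of HSP70, reached 1.26-fold at 19.2 h, and the mitochondrial chaperonin gene Hspd1 reached 1.24-fold at 20.5 h. Ahsa1 and Ahsa2, activators of the HSP90 ATPase, had 1.26 and 1.33-fold waves, and the immunophilin gene Fkbp4 and Dnaja1 had 1.17 and 1.13. Hsp90aa1, Hspa8 and Hspa2 were added without CT18 and CT36, at 1.09, 1.09 and 1.26-fold. The array at CT18 held the highest value of 11 of the 20 genes, beside 21.2% of all genes. The fitted folds of Chordc1 and Hsph1 without that array and CT36 were 1.55 and 1.26.

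The heat shock element, spelled GAANNTTCNNGAA and searched on both strands with overlaps counted, was present in 0.564% of genes, in 3 of 10 called chaperones (Chordc1, Hsph1 and Hspd1) and in 1 of 8 uncalled ones with an entry (Hspe1). Hspd1 and Hspe1 lie head to head and share the same matches. The sites are shown on the strand that reads the element, with its letters in capitals.
Chordc1, chr9:18292255-18292284, plus strand: tgcaaccgGAACGTTCGGGAAaattcctga
Chordc1, chr9:18292265-18292294, plus strand: acgttcggGAAAATTCCTGAAgcagtaccg
Hsph1, chr5:149636287-149636316, plus strand: aGAACTTTCCAGAAtctgcagcattttact
Hspd1, chr1:55088056-55088085, plus strand: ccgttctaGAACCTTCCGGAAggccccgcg
Chordc1 held 3 overlapping matches around its start, of which 2 are shown, and the match in Hsph1 lay 36 bases after the start.

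Chaperones of the endoplasmic reticulum that were called peaked late in the subjective night as well. Such chaperones fold secreted proteins and are classical targets of the unfolded protein response. The list also holds regulators and protein degradation genes of that response: Xbp1, Atf4, Ddit3, Syvn1 and Herpud1. Of 18 measured members, 10 were called with all arrays and 12 without CT18 and CT36, beside 1.8% and 3.36% of all genes, and the 10 peaked between 19.3 and 21.9 h. Of all 18 fitted peaks, 15 lay between 18 and 24 h and 3 between 6 and 12 h. The median fold was 1.18. Here too the members were chosen with earlier results of these data known. Sdf2l1, a component of the chaperone complex around BiP, ranged from 8.16 at CT34 through 8.65 to 8.96 at CT64, a fold of 1.48 (1.33 to 1.64) at 19.99 h (SE 0.505 h, adjusted p = 0.000288). Neither of its extremes lay on CT18 or CT36. Hspa5, which encodes BiP itself, ranged from 10.78 at CT36 through 11.28 to 11.44 at CT18, with a fold of 1.30 (1.21 to 1.40) at 19.96 h and 1.27 without these arrays. It was at or below 11.17 from CT26 to CT36 and from CT52 to CT60, and higher at the other times. The disulphide isomerase gene Pdia4 had 1.35-fold (1.26 to 1.44) at 20.6 h, Pdia6 1.24-fold at 20.9 h and Pdia3 1.19-fold at 20.4 h. Calr, the lectin chaperone calreticulin, had 1.18-fold at 21.9 h, and Hsp90b1, the HSP90 of this compartment, 1.18-fold at 21.04 h. Creld2, Dnajb11 and Dnajc3 had 1.28, 1.24 and 1.24-fold waves. Without CT18 and CT36, Manf at 18.6 h and Herpud1 at 12.7 h were added, the latter outside the hours of the others.

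The ER stress element, spelled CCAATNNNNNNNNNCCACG and searched on both strands, was present in 21 of the 15614 genes with a promoter entry (0.134%). Of these, 6 were called members of the list, out of 10, and 2 were uncalled members, Canx and Syvn1, out of 6 with an entry. The 6 called genes are set one above the other, read along the element, with the whole element in capitals.
Hspa5, chr2:34772020-34772049, plus strand: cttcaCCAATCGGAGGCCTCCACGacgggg
Hsp90b1, chr10:86705528-86705557, plus strand: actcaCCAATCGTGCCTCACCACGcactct
Pdia6, chr12:17266486-17266515, plus strand: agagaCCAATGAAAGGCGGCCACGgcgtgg
Calr, chr8:84847070-84847099, plus strand: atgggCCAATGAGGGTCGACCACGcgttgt
Dnajc3, chr14:118937822-118937851, plus strand: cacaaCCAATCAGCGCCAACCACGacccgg
Creld2, chr15:88819514-88819543, minus strand: gtggaCCAATTGAGGCTCGCCACGagaagc
The element began 65 bases before the start in Hspa5 and at 98 to 162 bases before it in the other 5 genes as shown, and Hsp90b1 held a second one at 212 bases. The 250 bases before the Hspa5 start give its context, with the element in capitals.
Hspa5, chr2:34771840-34772089, plus strand: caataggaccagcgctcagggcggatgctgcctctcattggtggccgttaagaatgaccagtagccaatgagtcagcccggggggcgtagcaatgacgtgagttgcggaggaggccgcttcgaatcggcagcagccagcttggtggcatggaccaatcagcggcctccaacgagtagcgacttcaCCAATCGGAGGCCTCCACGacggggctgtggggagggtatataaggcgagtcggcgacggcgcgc

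Glucocorticoid-responsive genes were high around the start of the subjective night. These genes carry the response to corticosterone, the adrenal hormone that rises before the active phase of the mouse. Of 19 measured members, 9 were called with all arrays and 12 without CT18 and CT36, beside 1.8% and 3.36% of all genes, with a median fold of 1.26, and the 9 peaked between 7.96 and 14.03 h. No member had a fitted peak from 18 to 24 h or from 0 to 6 h. Earlier results of these data were known when this list was chosen. Plin4, a lipid droplet coat gene, ranged from 6.22 at CT50 through 6.70 to 7.28 at CT62, a fold of 1.59 (1.38 to 1.84) at 14.03 h (adjusted p = 0.00145). Zbtb16, which encodes the transcription factor PLZF, ranged from 8.06 at CT24 through 8.73 to 9.96 at CT36. Its fold was 1.81 (1.45 to 2.25) at 12.9 h, and 1.68 at 13.6 h without CT18 and CT36. Tsc22d3, which encodes GILZ, had 1.39-fold at 13.6 h, and the receptor kinase gene Mertk 1.34-fold at 13.1 h.

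Sgk1, a kinase gene induced by corticosteroids, had one of the largest folds but a wide scatter. It ranged from 8.17 at CT28 through 9.21 to 9.75 at CT36, with low values next to high ones, such as 9.21 at CT26, 8.17 at CT28 and 9.60 at CT30. The fold was 1.83 (1.39 to 2.42) at 11.4 h with an adjusted p of 0.0404, and the call was lost in 13 of the 24 fits that left out a single array, with a highest adjusted p of 0.0835 without CT24. The metallothionein genes Mt1 and Mt2, which bind zinc and copper, had 1.22 and 1.25-fold waves at 9.28 and 7.96 h, and Ddit4, an inhibitor of mTOR signalling, 1.26-fold at 10.2 h. Per1 belongs to this list as well as to the clock. The array at CT18 held the lowest value of 9 of the 19 genes and CT36 the highest of 6, beside 25.3% and 13.6% of all genes. Klf9, Klf15 and Hif3a were added without these arrays.

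**Figure D4:**
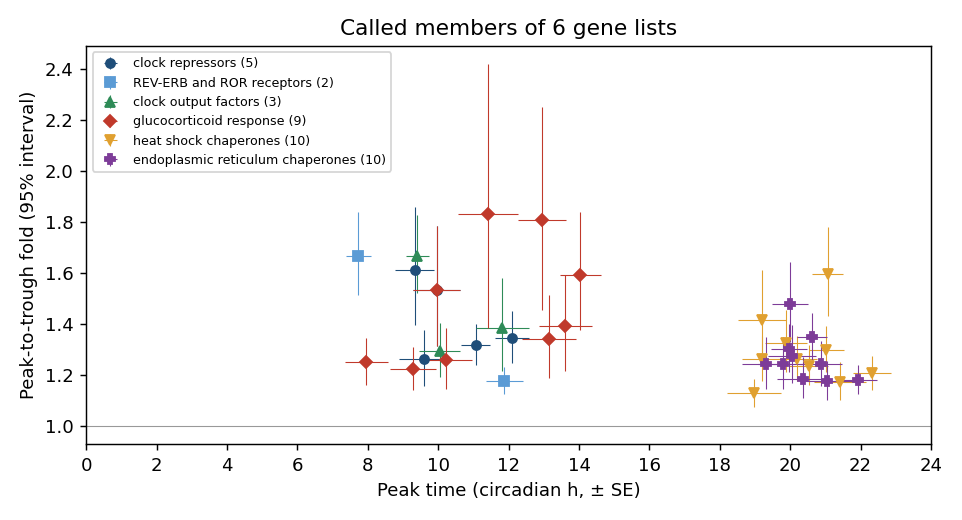
Peak-to-trough fold with its 95% interval (y axis) against peak time with its SE in circadian hours (x axis) for the called members of 6 gene lists with all 24 arrays, 1 point per gene. The heat shock and endoplasmic reticulum chaperones lie together between 18.98 and 22.3 h, and the clock repressors, receptors, output factors and glucocorticoid genes lie between 7.72 and 14.03 h.

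Of 5 measured cold-inducible RNA-binding genes, 2 were called with all arrays and 3 without CT18 and CT36, beside 1.8% and 3.36% of all genes. Cirbp, the cold-inducible RNA-binding protein, ranged from 9.46 at CT50 through 9.85 to 10.11 at CT60, a fold of 1.34 (1.22 to 1.48) at 9.21 h (adjusted p = 0.00162). Its relative Rbm3 had 1.30-fold at 11.03 h and passed without CT18 and CT36 (adjusted p = 0.0186) but not with them (0.0527). Tardbp of the same list peaked at 21.7 h with 1.205-fold. Slc7a5, a carrier of large neutral amino acids and thyroid hormone, had a 1.29-fold wave (1.22 to 1.36) at 9.86 h, the called member among 11 genes of thyroid hormone handling. Dhcr7 was called among 16 genes of cholesterol synthesis (1.21-fold at 5.47 h), and lost its call with the mean of the oligodendrocyte and myelin markers as a covariate (adjusted p = 0.115). Ifit3, an interferon-induced gene, had 1.52-fold at 14.1 h and its highest value, 9.02, at CT18. The wave fitted without CT18 and CT36 gave an expected 8.25 there.

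No gene of the neuropeptide list passed with all arrays. Neuropeptides are the signals by which hypothalamic neurons control feeding, water balance, growth and arousal, and 28 genes of a list of them were measured, including Hdc, an enzyme gene of histamine neurons. Their median fold was 1.12, 8 had an unadjusted p under 0.05 where 17.5% of all genes did, and the array at CT36 held the lowest value of 12 of the 28, beside 10.4% of all genes. Hcrt, the orexin gene, ranged from 10.52 at CT18 through 11.07 to 11.55 at CT56, with a fold of 1.35 (1.15 to 1.58) at 5.44 h and an adjusted p of 0.0800. Pmch, the melanin-concentrating hormone gene of the same lateral area, ranged from 11.08 at CT36 through 11.43 to 11.85 at CT56. Its fold was 1.25 (1.10 to 1.42) at 6.18 h, with an adjusted p of 0.0996 with all arrays and 0.0283 without CT18 and CT36. Hdc, the histidine decarboxylase gene that marks histamine neurons, likewise passed without the 2 arrays (1.24-fold at 7.75 h, adjusted p = 0.0321) but not with them (0.163). Avp had 1.16-fold (0.929 to 1.46), Oxt 1.10 (0.868 to 1.40), Npy 1.202 (1.03 to 1.41) and Pomc 1.17 (1.04 to 1.30), with adjusted p of 0.664, 0.859, 0.340 and 0.233. These intervals allow waves as large as those of many called genes.

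Genes of the suprachiasmatic nucleus were measured in RNA of the whole hypothalamus, and none of 20 was called, with 5 at an unadjusted p under 0.05, beside 17.5% of all genes. Vip, a peptide of its retinorecipient core, was near the low end of the scale, from 5.38 at CT26 through 5.76 to 6.14 at CT60, and its fold was 1.22 (1.09 to 1.38) at 14.8 h (adjusted p = 0.122). Vipr2, the receptor for VIP, ranged from 7.11 at CT18 through 7.77 to 8.15 at CT42. Its fold was 1.19 with all arrays (adjusted p = 0.442) and 1.33 at 17.4 h without CT18 and CT36 (adjusted p = 0.00897), and the array at CT18, with its lowest value, is among those left out. On the first day alone, which holds both CT18 and CT36, its fitted fold was 1.04, and on the second 1.43.

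Among 36 receptors for neuropeptides and hormones, 2 were called, beside 1.8% of all genes. Npy1r, a receptor for the feeding peptide NPY, ranged from 7.50 at CT34 through 7.81 to 8.15 at CT18, a fold of 1.31 (1.19 to 1.44) at 17.97 h (adjusted p = 0.00722). Mc4r, the melanocortin receptor that restrains feeding, ranged from 7.35 at CT56 through 7.73 to 8.01 at CT44, a fold of 1.28 (1.16 to 1.42) at 18.9 h (adjusted p = 0.0159). Both were also called without CT18 and CT36, and Mc4r lost its call with the mean of the oligodendrocyte and myelin markers as a covariate (adjusted p = 0.0575). In genes of GABA signalling, 1 of 17 passed: Gabra2, a receptor subunit gene, at 1.202-fold and 21.6 h (adjusted p = 0.0483), and 20 of the 24 fits that left out an array lost it. None of 23 glutamate genes, 21 monoamine and histamine genes, 25 channel genes or 28 immediate early genes was called with all arrays, where 5, 5, 2 and 6 had an unadjusted p under 0.05, beside 17.5% of all genes. Without CT18 and CT36, Grik4, Grik5, Hdc, Htr2c, Jund and Ier3 passed, each between 1.11 and 1.24-fold. The mean of the immediate early genes was lowest at CT18, 6.80, and highest at CT36, 7.37. None of 20 genes of oxidative phosphorylation or 13 of the cytosolic ribosome was called, with 4 and 0 at an unadjusted p under 0.05.

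Counts of called markers of neurons and glia stand beside 1.8% of all genes called and 17.5% at an unadjusted p under 0.05. None of 14 neuron markers passed, with 3 at an unadjusted p under 0.05, and their mean ranged from 10.80 at CT18 to 10.98 at CT22. The mean of 15 astrocyte markers ranged from 10.34 at CT60 to 10.57 at CT56, and that of 14 oligodendrocyte and myelin markers from 10.18 at CT18 to 10.53 at CT56. In pieces of tissue, fewer cells of a type and less RNA per cell cannot be told apart. Among single glial genes Fabp7, the brain fatty-acid-binding protein of astrocytes and radial glia, had the largest fold of the named genes that were called. It ranged from 10.75 at CT62 through 11.33 to 11.85 at CT28, and on the second day it reached 11.78 at CT50. The fold was 1.91 (1.78 to 2.04) at 3.79 h (SE 0.199 h) with an adjusted p of 3.56e-12, and 1.87 at 3.82 h without CT18 and CT36. S100a16, a calcium-binding protein gene, peaked near it, at 4.11 h with 1.39-fold (1.26 to 1.52). Of the astrocyte markers, Slc7a10, a carrier of small neutral amino acids, was called at 1.14-fold (adjusted p = 0.0483), and 20 of the 24 fits that left out an array lost it. None of 8 markers of oligodendrocyte precursors was called, with 2 at an unadjusted p under 0.05, and Gpr17 passed without CT18 and CT36 (1.21-fold at 19.4 h).

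Of 14 measured markers of oligodendrocytes and myelin, Opalin and Ugt8a were called, beside 1.8% of all genes. A further 3 called genes known from this lineage, Pllp, Anln and Cdh19, were among the largest folds. The fitted peaks of the 14 markers were spread over the day, with 5, 4, 2 and 3 in successive spans of 6 h from 0 h. Opalin, a membrane protein of mature oligodendrocytes, ranged from 7.44 at CT18 through 8.19 to 8.70 at CT54, a fold of 1.65 (1.41 to 1.93) at 5.58 h (SE 0.584 h, adjusted p = 0.00153), and 1.57 without CT18 and CT36. It was above 8.5 at CT26 and CT28 and again from CT52 to CT56. Pllp, which encodes the myelin protein plasmolipin, had 1.36-fold (1.25 to 1.48) at 7.10 h. Anln, an actin-binding protein also found in myelin, had 1.40-fold (1.27 to 1.54) at 18.5 h, from 8.19 at CT54 to 8.97 at CT18. Cdh19, a cadherin of oligodendrocyte lineage and Schwann cells, peaked at 16.3 h with 1.37-fold. Its value at CT18, 8.08, lay 0.54 log2 units above the wave fitted without CT18 and CT36. Ugt8a, which makes the myelin lipid galactosylceramide, peaked at 21.99 h with 1.19-fold. Ugt8a lost its call with a straight line in time as a covariate (adjusted p = 0.0571). With the mean of the 14 markers as a covariate, the adjusted p of Pllp and Anln, which are not among them, stayed under 0.05, and that of Tmod1, a tropomodulin gene called at 1.35-fold and 5.66 h, rose to 0.144. Leaving out CT52 or CT54 also lost the call of Tmod1. So did the mean of its probe sets, and an unmoderated F test on ranks (adjusted p = 0.0570).

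At the vessel wall, Cldn5, the tight-junction claudin of the blood-brain barrier, ranged from 8.62 at CT60 through 9.25 to 9.55 at CT18. Its values were at or above 9.36 at CT22 to CT28 and CT44 to CT50, and at or below 8.997 from CT32 to CT36 and CT56 to CT60. The fold was 1.4996 (1.34 to 1.68) at 22.5 h (SE 0.509 h, adjusted p = 0.000312), and 1.497 without CT18 and CT36. The mean of 11 endothelial markers ranged from 8.14 at CT60 to 8.50 at CT48. Of these 11, 9 had an unadjusted p under 0.05, beside 17.5% of all genes. Cldn5 was the called one, beside 1.8% of all genes. The count was 3 without CT18 and CT36, where Pecam1 and Abcb1a joined at 1.17 and 1.14-fold, 3 without CT18 or CT58 alone, 4 without CT62 alone and 2 without CT36, CT50 or CT64 alone. The part of vessel content in the Cldn5 wave was not tested. None of 8 pericyte, 11 microglia or 12 tanycyte and ependyma markers was called, with 3, 3 and 1 at an unadjusted p under 0.05. Of 10 meningeal markers, 6 had an unadjusted p under 0.05, beside 17.5% of all genes, with a median fold of 1.21 over the 10. Their mean ranged from 6.84 at CT32 to 7.90 at CT62. Their fitted peaks lay from 12 to 18 h in 4 and from 18 to 24 h in 6. Lum was the called one at 1.18-fold, with values of 4.61 to 5.05.

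**Figure D5:**
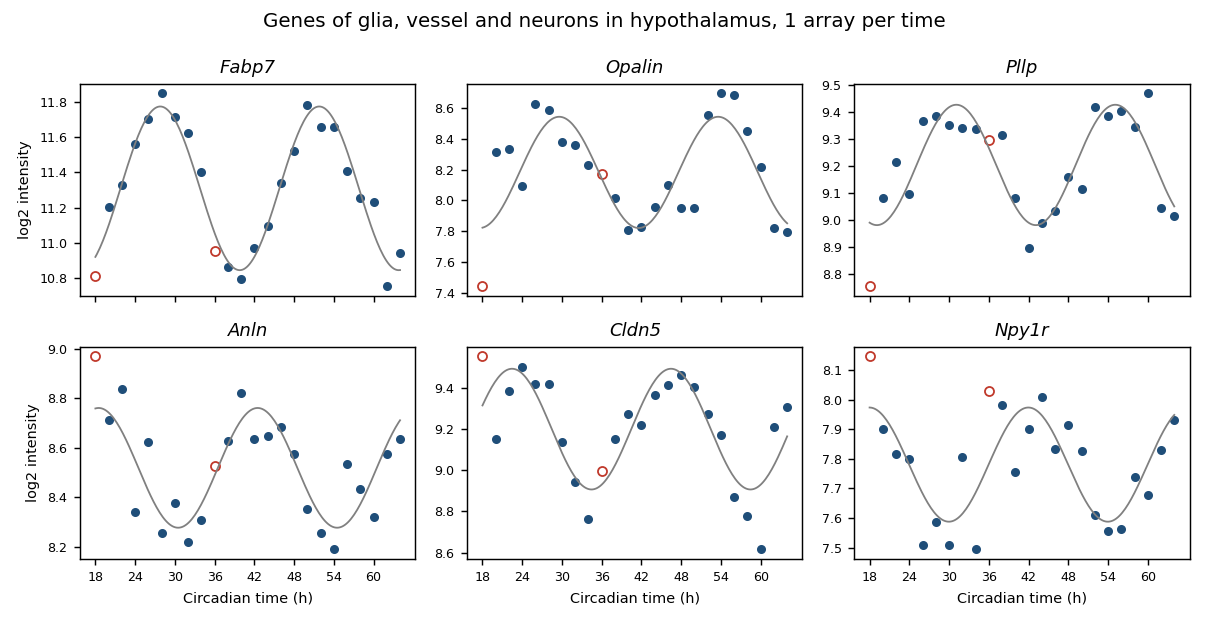
Log2 intensity (y axis, a scale per gene) of 6 genes of glia, vessel and neurons on each array against circadian time in hours (x axis). Filled points are single arrays, open red points are CT18 and CT36, and the grey line is the 24 h wave fitted to all arrays. Fabp7 peaks at 3.79 h, Opalin at 5.58 h, Pllp at 7.10 h, Npy1r at 17.97 h, Anln at 18.5 h and Cldn5 at 22.5 h.

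The other brain tissues of the series, sampled at the same times, had more called waves with all arrays: 1094 genes in cerebellum (5.49%) and 953 in brainstem (4.78%). The hypothalamus count was 359 with all arrays, 670 without CT18 and CT36 and 1121 with array weights. Cerebellum and brainstem were counted with all their arrays and without weights only, and the overlaps use the 359. Of the 359 hypothalamus genes, 145 were also called in cerebellum, which is 40.4% of the hypothalamus list and 13.3% of the cerebellum list. In brainstem 178 were also called, 49.6% and 18.7% of the lists, and 97 were called in all 3 tissues. The wave itself differed between hypothalamus and cerebellum in 12 genes (0.0602%; 1599 at an unadjusted p under 0.05). Arntl had a fold of 1.23 in hypothalamus and 1.53 in cerebellum (adjusted p of the difference 0.00695), Per2 1.35 and 2.03 (0.0101), and Ciart 1.61 and 2.36 (0.0347). In Ciart and Per2 the cerebellum peaked later as well, at 11.2 against 9.33 h and at 14.5 against 12.1 h. Mt2 peaked at 7.96 h in hypothalamus and 13.6 h in cerebellum (0.00268). Dbp and Nr1d1 missed the threshold, with folds of 2.10 and 1.74 in cerebellum and differences at 0.263 and 0.483.

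Against brainstem, the wave of 1 gene differed (0.00502%; 1202 at an unadjusted p under 0.05). This was Fabp7, with 1.91-fold at 3.79 h in hypothalamus and 1.63-fold at 5.39 h in brainstem (adjusted p = 0.0271). Without CT18 and CT36 the difference had an adjusted p of 0.0512. Fabp7 in cerebellum had 1.57-fold at 4.24 h, and its difference from hypothalamus did not pass (0.212). Opalin, Chordc1, Cldn5 and Sdf2l1 had called waves in all 3 tissues, with peaks in cerebellum at 6.40, 21.6, 23.2 and 19.6 h and in brainstem at 4.97, 20.2, 22.7 and 20.4 h.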

How the data were processed

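Per the submitters' processing notes, the authors used Affymetrix Expression Console and GCRMA. The deposited values are linear intensities, from 6.9 to 45307.8, and were turned into log2 values here. How the tissues were normalized together, and a genome build for the files, are not given in the sources used here. Precision is limited by having 24 arrays. The median intensity of the 24 arrays lay between 97.9 and 102.7. Of 35556 probe sets, 21789 had 1 gene symbol, 1621 several and 12146 none, and the gene IDs of 21698 probe sets were found in RefSeq. The brightest probe set stood for each of 999 genes with several.

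A 24 h cosine was fitted per gene with limma 3.58.1 in R 4.3.3 (moderated F test with a trend on the mean, Benjamini-Hochberg over 19938 genes). It was tested on simulated data. The same fit with a tissue interaction compared tissues. The members and lists were chosen with earlier results of these data known. Genes were named by rule: clock, suprachiasmatic and neuropeptide lists, the 16 largest folds outside the clock lists, the called members with the smallest p of each other list, the largest tissue differences, and the genes furthest off at CT18 and CT36. Further called members were named after their values were seen. Alternatives changed the arrays, variance model, scale, covariates, filter, normalization, probe sets and days. Promoters and motif windows came from RefSeq's table for GRCm38.p6.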

Additional observations from a re-analysis of the deposited data

Results flagged for a closer look

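The wave in hypothalamus differed from that in cerebellum in 12 genes and from that in brainstem in 1, by the test of the difference itself (limma, adjusted p under 0.05). Among clock genes these were Arntl (adjusted p = 0.00695), Per2 (0.0101), Ciart (0.0347) and Tef (0.0347), each with a smaller fold in hypothalamus. Tef had 1.10-fold in hypothalamus and 1.34-fold in cerebellum. Mt2 (0.00268) had a fitted peak at 7.96 h in hypothalamus and 13.6 h in cerebellum. The test takes the fold and the peak time together, so neither was tested alone. Stk17b (0.031) had 1.17-fold at 14.2 h in hypothalamus and 1.12-fold at 0.310 h in cerebellum, and P4ha3 (0.0257) had 1.23-fold and 1.04-fold. The remaining genes had larger folds in cerebellum: Chil5 with 1.37 against 1.07 (0.000561), Slc44a5 with 1.35 against 1.04 (0.0116), Stk32a with 1.35 against 1.08 (0.0126), Mrln with 1.26 against 1.01 (0.0295) and Ttll3 with 1.28 against 1.07 (0.0362). Fabp7 was the gene that differed from brainstem (0.0271), with a larger fold and an earlier peak in hypothalamus.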

How the results depend on the processing

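The count of 359 genes with a 24 h wave was 670 without CT18 and CT36, 768 without CT60 as well (chosen after seeing the data) and 1121 with array weights, which kept 357 of the 359. On normal scores of ranks it was 0 with the moderated test, which gave all genes 1 common variance (lowest adjusted p 0.0815, and 4008 genes at an unadjusted p under 0.05), and 852 with each gene's own variance (chosen after seeing the data). The first 24 h alone gave 3 and the second 62, with fewer arrays in each fit. Both CT18 and CT36 lie in the first 24 h. Leaving out single arrays gave 219 to 444. The count over 1.2-fold, 173, was 3 on the first day alone, 58 on the second, and 131 to 188 with single arrays left out. The clock lists' 11 called members became 17 with array weights, 0 on moderated ranks, 2 on the first day alone, and 11 to 14 with single arrays left out. The 12 genes that differed from cerebellum became 21 without CT18 and CT36 and 57 with array weights. The 1 gene that differed from brainstem became 0 without CT18 and CT36, 0 without the variance trend and 10 with array weights. The cause of these changes was not tested. For named genes called both in the main fit and in an alternative, no peak time reversed. Genes that lost their call and the tissue differences were not checked for a reversal. Of 52 named called genes, 39 kept their call in all 18 settings that used both days, moderated ranks aside, and 13 lost it in at least 1 of them. The labels number no replicates, but tissues share their time points. With the time point as a replicate block (chosen after seeing the data), 10 genes differed from cerebellum, 8 of them among the 12, and Fabp7 still differed from brainstem (adjusted p = 0.00559). Mrln, P4ha3, Stk17b and Tef no longer passed. Deviations from the wave correlated over 0.1 at 11 of 24 time points with cerebellum and 8 with brainstem. The median correlations were 0.073 and 0.035, and 3 and 4 hypothalamus arrays correlated best with their own time. The main comparison was planned without pairs, and these correlations cannot show whether the tissues of a time point share mice. With 1 pool per time, the spread between mice at a time point is unknown.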
